A study of Mus musculus with 10 samples.

Results

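Cells obtain cholesterol by making it or by taking it up, and the 30 genes described here cover those routes and the way out. They were the rows carrying the symbols of 8 mevalonate and isoprenoid enzymes, 11 squalene and sterol enzymes, 4 regulators of the transcription factor SREBP-2, and 7 genes of sterol transport, export, uptake and esterification. All 30 were found in each of the 2 expression tables, among 32526 gene names that the tables share. All 10 libraries came from OP9, a line of mouse marrow stroma able to become adipocytes, kept for 10 days in 1 µM rosiglitazone, which activates the adipocyte receptor PPARγ. In batch 2, 3 libraries of Drosha knockout cells stood against 3 of empty vector cells, and in batch 1, 2 libraries of Dicer1 knockout cells stood against 2 of empty vector cells. Drosha and Dicer1 are the nuclear and the cytoplasmic ribonucleases of microRNA maturation. Knockout and batch coincide. The labels do not say how the knockouts were made, whether a line is a clone or a pool, or whether replicates were separate cultures. The p-values thus cover only how far these libraries spread, which may be technical. The 3 Drosha knockout libraries share a tag in their labels that is not explained, so they may stand for the same construct or line.

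Cholesterol synthesis starts from acetyl-CoA, passes through mevalonate and the isoprenoids to squalene, and closes and trims the ring to cholesterol. When sterol in the endoplasmic reticulum is low, SCAP escorts SREBP-2 to the Golgi, where it is cut and released to activate most of these genes. INSIG proteins hold SCAP back when sterol is plentiful. In adipocytes much of the free cholesterol sits at the lipid droplet surface, and ABCA1 and ABCG1 pass cholesterol out to lipoproteins.

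Values are TPM, a level per transcript length scaled to a fixed total, so sequencing depth is unknown and no counting interval is given. From 12580 to 13679 genes had a TPM of 1 or more in a library. Drosha was 38.9, 39.6 and 38.6 TPM in the batch 2 empty vector and 14.8, 13.7 and 15.6 TPM in its knockout, a log2 change of -1.35 ± 0.05 (SE; adjusted p = 9.72e-06). Dicer1 was 23.8 and 17.3 TPM in the batch 1 empty vector and 19.3 and 14.9 TPM in the libraries labelled Dicer1 knockout. Those groups overlapped (log2 change -0.25 ± 0.21, adjusted p = 0.407), so the Dicer1 transcript did not check that label, and each direction below is that of the libraries so labelled. The batch 1 empty vector libraries also differed more from each other than those of any other group. Over the members tested, the median log2 difference between them was 0.34, against a median range of 0.10 within each batch 2 group and 0.16 in the libraries labelled Dicer1 knockout.

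Cell type markers moved with the groups. All 6 dividing-cell markers rose in Drosha knockout, where they summed to 159.9 to 175 TPM against 62.2 to 70.0 in its empty vector. All 6 fell in the libraries labelled Dicer1 knockout, to 90.8 and 88.2 TPM, and the 2 empty vector libraries of that batch stood at 428 and 222. Of 8 adipocyte markers, 6 fell and 1 rose in Drosha knockout, with sums of 1877 to 1926 TPM against 1904 to 1910, and 7 fell in the libraries labelled Dicer1 knockout, to 339 and 369.5 TPM against 1153 and 981. Of 8 stromal markers, 6 were tested in batch 2, where 1 rose and 2 fell in Drosha knockout. All 8 summed to 7226 to 7368 TPM there, against 7195 to 7711 in its empty vector. In batch 1, 7 were tested, and 1 rose and 4 fell in the libraries labelled Dicer1 knockout. There the 8 summed to 922 and 898 TPM against 1870 and 1523. Of all genes tested, 35.3% rose and 7.42% fell in Drosha knockout, and 21.5% rose and 9.6% fell in batch 1. The 6 macrophage markers summed to 12.5 to 23.3 TPM with 1 of them at 0 in every library, and endothelial and hepatocyte markers summed to less than 3 TPM in any library. The part of cell makeup in the results below was not tested, and in bulk RNA fewer cells of a type and less RNA per cell cannot be told apart.

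In Drosha knockout, genes of each of the 4 roles rose, though not at every step. Of the 29 members that passed the filter on low TPM, 18 rose, none fell and 11 were not called, by limma at an adjusted p under 0.05. That was 62.1% of them called higher, where 35.3% of all 12739 genes tested were called higher and 7.42% lower. Their log2 changes of TPM + 1 ran from -0.22 to 0.91 with a median of 0.28, against a median of 0.13 over all genes. That general shift matters for the smaller rises. With each library rescaled so that the median gene did not move, 14 members were called higher and 3 lower (Tm7sf2, Nsdhl and Scarb1), with a median of 0.14. All-gene calls then stood at 2297 higher and 2091 lower, in place of 4502 and 945. Every knockout library lay above every empty vector library for 19 members and below for 2, and 44.1% and 10.7% of all genes did so.

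In the libraries labelled Dicer1 knockout these 29 genes did not rise together. Npc1 and Hsd17b7 rose, Idi1, Acat2, Fdps and Abca1 fell, and 23 of the 29 members tested were not called. Called higher were 6.9% of the members against 21.5% of all 12239 genes tested, and called lower 13.8% against 9.6%. The share called lower was near that of all genes. The median log2 change was -0.20, against 0.15 over all genes. It was -0.05 without the second library labelled knockout and -0.08 without empty vector replicate 1. Of the 29, 11 members had an unadjusted p under 0.05, as did 5456 of all 12239 genes tested. Both libraries labelled knockout lay above both empty vector libraries for 6 members and below them for 12, and 45.9% and 24.2% of all genes did so. With median-ratio scaling the counts were 1 higher and 6 lower (Sqle and Msmo1 added, Hsd17b7 lost) and the median -0.37. All-gene calls then stood at 1513 higher and 1672 lower of 12239. Without either of the 2 libraries labelled knockout, 0 or 1 members were called higher and none lower, and calls over all genes stood at 214 or 378 higher and 218 or 301 lower, in place of 2627 and 1175. Without empty vector replicate 1 the counts were 2 higher and 5 lower, and without replicate 2 they were 4 and 4.

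**Figure D1:**
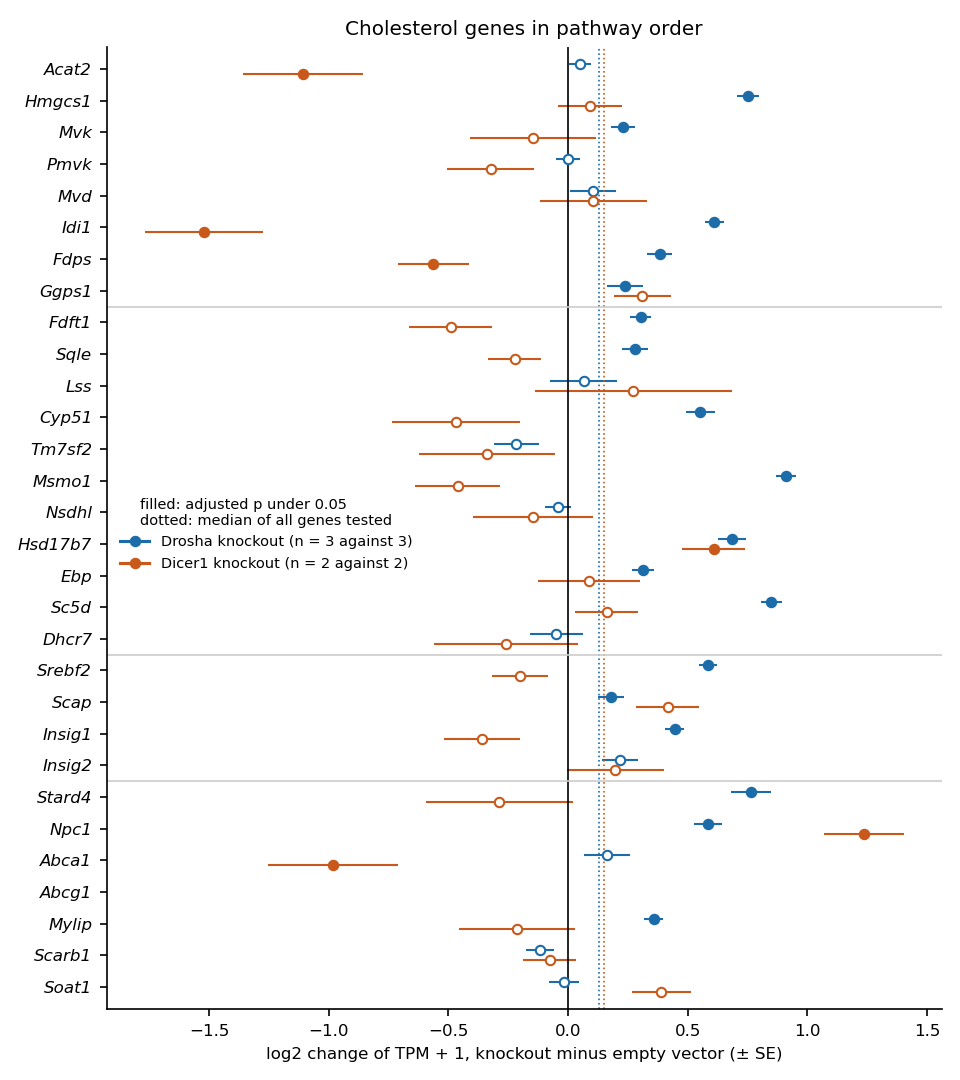
Log2 change of TPM + 1 with its standard error for each member in pathway order, in Drosha knockout (blue, 3 against 3 libraries) and in the libraries labelled Dicer1 knockout (orange, 2 against 2). Filled points passed an adjusted p of 0.05, dotted lines mark the medians of all genes (0.13 and 0.15), grey lines part the 4 roles, and Abcg1 has no point because it was not tested. The 18 filled blue points all lie right of 0, while the 6 filled orange points lie on either side.

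The mevalonate steps turn acetyl-CoA into the isoprenoid building block. Hmgcs1 makes HMG-CoA, the precursor of mevalonate. It measured 61.6, 62.6 and 62.6 TPM in the batch 2 empty vector and 100.5, 104 and 112 TPM in Drosha knockout, with no overlap. Its log2 change was 0.75 ± 0.05 (adjusted p = 3.63e-05). The batch 1 levels were 31.3 and 26.1 TPM in the empty vector and 29.5 and 31.4 TPM in the libraries labelled Dicer1 knockout, which overlapped (log2 change 0.09 ± 0.13, 95% interval -0.25 to 0.43, adjusted p = 0.640).

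Idi1 interconverts the pair of isoprenoid building blocks, and it moved in opposite directions. It rose from 33.2, 33.5 and 32.2 TPM to 49.8, 50.2 and 52.4 TPM in Drosha knockout, a log2 change of 0.61 ± 0.04 (adjusted p = 4.78e-05). From 22.7 and 14.9 TPM in the batch 1 empty vector it fell to 6.48 and 5.10 TPM in the libraries labelled Dicer1 knockout, a log2 change of -1.52 ± 0.25 (adjusted p = 0.0121). The groups did not overlap in either batch. Without the first or the second of the libraries labelled Dicer1 knockout, the batch 1 change was -1.67 or -1.37, with an adjusted p of 0.0525 or 0.0619.

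Fdps, which joins building blocks into farnesyl diphosphate, showed the same opposition at a smaller size. In batch 2 it rose from 53.5, 49.9 and 53.5 TPM to 65.6, 67.0 and 72.8 TPM (log2 change 0.38 ± 0.05, adjusted p = 0.00102). In batch 1 it fell from 24.5 and 20.5 TPM to 14.3 and 15.4 TPM (log2 change -0.56 ± 0.15, adjusted p = 0.0402). Neither pair of groups overlapped. The batch 1 call was lost without the first library labelled knockout (adjusted p = 0.255), without the second (0.175), without empty vector replicate 1 (0.0506) and under 3 other settings, and its adjusted p ran from 0.0151 to 0.255 over all alternatives. Called higher in Drosha knockout and lower in the libraries labelled Dicer1 knockout were 2 of the 29 members, Idi1 and Fdps, and 2.91% of the 11146 genes tested in both.

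Acat2 condenses acetyl-CoA to acetoacetyl-CoA at the entry of the pathway. It measured 28.4 to 30.4 TPM in the 3 batch 2 empty vector libraries and 29.7, 31.2 and 31.2 TPM in Drosha knockout, which overlapped (log2 change 0.05 ± 0.05, 95% interval -0.06 to 0.16, adjusted p = 0.407). In batch 1 it fell from 13.7 and 8.64 TPM to 4.55 and 4.47 TPM (log2 change -1.11 ± 0.25, adjusted p = 0.0267), and the call was lost without the first or the second library labelled knockout (adjusted p = 0.129 and 0.121). The neighbouring near-identical gene Acat3 measured less than 2 TPM in each of the 10 libraries, and how reads were split between the pair is not given in the sources used here, so Acat2 values are uncertain to that extent.

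The other mevalonate and isoprenoid genes moved less. Mvk, mevalonate kinase, rose in Drosha knockout by a log2 change of 0.23 ± 0.05 (adjusted p = 0.00763), and Ggps1, which makes geranylgeranyl diphosphate for protein prenylation, by 0.24 ± 0.08 (adjusted p = 0.0402). Neither was called with median-ratio scaling (0.09 and 0.10, adjusted p = 0.207 and 0.349). Ggps1 also lost its call without knockout replicate 2 (adjusted p = 0.0871) or 3 (0.114) and without empty vector replicate 2 (0.0912) or 3 (0.0575). Pmvk and Mvd, which phosphorylate and decarboxylate mevalonate products, had log2 changes of 0.00 ± 0.05 and 0.10 ± 0.10 in Drosha knockout and were not called. In batch 1 the log2 changes were -0.32 ± 0.18 for Pmvk and 0.31 ± 0.12 for Ggps1, without overlap (adjusted p = 0.228 and 0.102). Those of Mvk and Mvd were -0.15 ± 0.26 and 0.11 ± 0.23, with overlap (adjusted p = 0.698 and 0.746). In all, 5 of the 8 genes of this role rose in Drosha knockout (62.5%, against 35.3% of all genes) and 3 fell in the libraries labelled Dicer1 knockout (37.5%, against 9.6%).

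**Figure D2:**
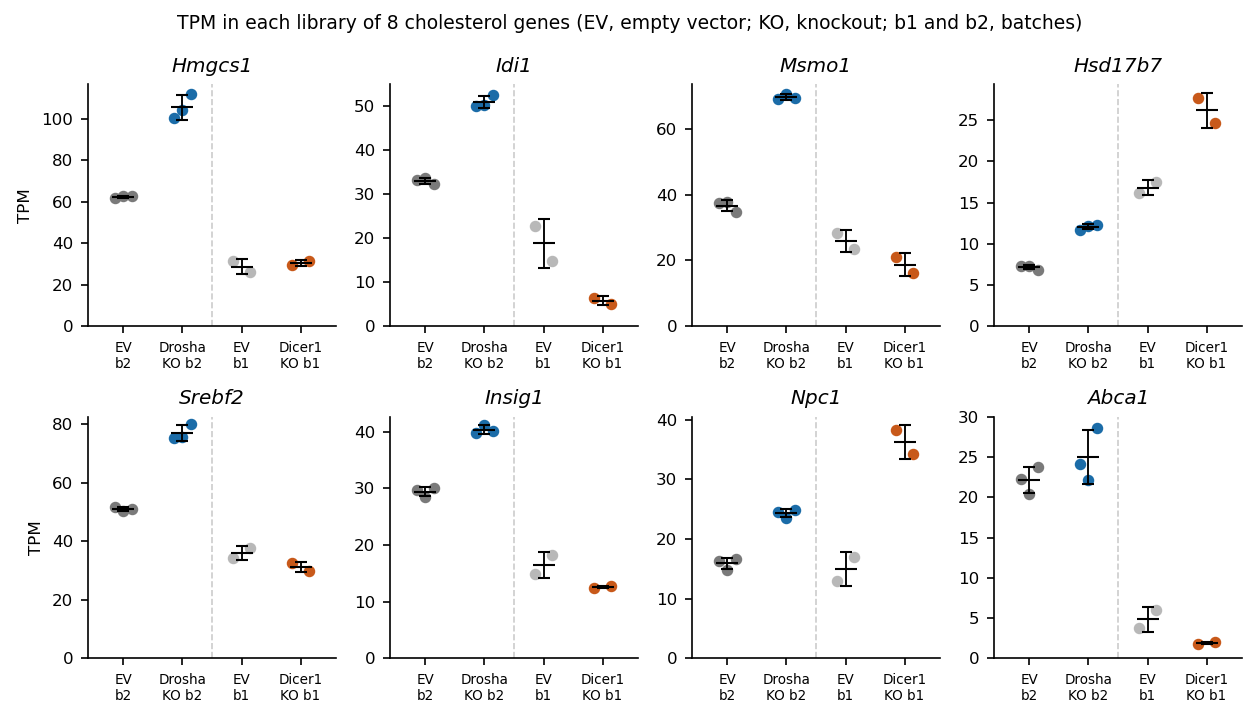
TPM of 8 members in every library (points), with the mean and SD of each group in black, for the empty vector and Drosha knockout of batch 2 (3 libraries each) and the empty vector and the libraries labelled Dicer1 knockout of batch 1 (2 each). The 3 Drosha knockout libraries lie above their empty vector for each gene shown except Abca1. Idi1 and Abca1 were called lower in the libraries labelled Dicer1 knockout. For Msmo1, Srebf2 and Insig1 both libraries so labelled lie below both empty vector libraries, without a call. Npc1 and Hsd17b7 were called higher in both comparisons.

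In the squalene and sterol steps, 7 of 11 genes rose in Drosha knockout (63.6%, against 35.3% of all genes) and none fell. Msmo1, which oxidises methyl groups of the sterol ring, had the largest log2 change of the 29 members tested there. It measured 37.6, 37.7 and 34.9 TPM in the empty vector and 69.0, 70.8 and 69.5 TPM in the knockout, a 1.88-fold rise (log2 change 0.91 ± 0.04, adjusted p = 1.42e-05). That change was higher than in 97.2% of all genes tested. Batch 1 levels were 28.2 and 23.6 TPM against 21.1 and 16.2 TPM in the libraries labelled Dicer1 knockout, without overlap but not called (log2 change -0.46 ± 0.18, adjusted p = 0.105).

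Sc5d, a desaturase of the late sterol ring, rose almost as far in Drosha knockout. Its levels were 34.9, 32.5 and 34.0 TPM in the empty vector and 59.7, 61.6 and 63.9 TPM in the knockout (log2 change 0.85 ± 0.04, adjusted p = 2.27e-05). Batch 1 showed 18.9 and 18.0 TPM against 21.8 and 19.8 TPM, which was not called (log2 change 0.16 ± 0.13, 95% interval -0.17 to 0.49, adjusted p = 0.387). Cyp51, the demethylase that acts on lanosterol, rose in Drosha knockout from 12.2, 12.9 and 13.3 TPM to 18.0, 19.8 and 20.0 TPM (log2 change 0.55 ± 0.06, adjusted p = 0.000452). In batch 1 its empty vector libraries were far apart at 12.4 and 7.33 TPM, and the libraries labelled knockout measured 6.32 and 6.97 TPM (log2 change -0.47 ± 0.27, adjusted p = 0.234). Without the lower of those empty vector libraries, replicate 2, Cyp51 was called lower at -0.81 (adjusted p = 0.0220).

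Hsd17b7, a reductase of sterol ring ketones, was one of the 2 members that rose in both comparisons. It went from 7.25, 7.30 and 6.83 TPM to 11.7, 12.2 and 12.3 TPM in Drosha knockout (log2 change 0.68 ± 0.06, adjusted p = 0.000163). It went from 16.2 and 17.5 TPM to 27.7 and 24.7 TPM in the libraries labelled Dicer1 knockout (log2 change 0.61 ± 0.13, adjusted p = 0.0243). No groups overlapped. The batch 1 call was lost without the first or the second library labelled knockout (adjusted p = 0.227 and 0.131) and with median-ratio scaling (0.0659). The difference between its changes was 0.08, with a 95% interval of -0.19 to 0.34.

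Fdft1, squalene synthase, Sqle, squalene epoxidase, and Ebp, a sterol isomerase, rose in Drosha knockout by log2 changes of 0.30 ± 0.04, 0.28 ± 0.06 and 0.31 ± 0.05, with adjusted p between 0.00151 and 0.00566. Sqle lost its call with median-ratio scaling (0.14, adjusted p = 0.0752). In batch 1 Fdft1 and Sqle had log2 changes of -0.49 ± 0.17 and -0.22 ± 0.11, without overlap but not called (adjusted p = 0.0844 and 0.179). Ebp overlapped there (log2 change 0.09 ± 0.21, adjusted p = 0.779). Lss, which closes the ring, had the widest log2 range of the 29 members tested within each of the 4 groups and was not called in either comparison. Tm7sf2 and Dhcr7, sterol reductases, and Nsdhl, which removes a carboxyl group from the ring, were not called in either comparison, at log2 changes of -0.22 ± 0.09, -0.05 ± 0.11 and -0.04 ± 0.05 in Drosha knockout. The 19 enzymes together summed to 468 to 478 TPM in the batch 2 empty vector and 627 to 677 TPM in Drosha knockout. In batch 1 they summed to 295 and 255 TPM in the empty vector and 252 and 237 TPM in the libraries labelled Dicer1 knockout.

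**Figure D3:**
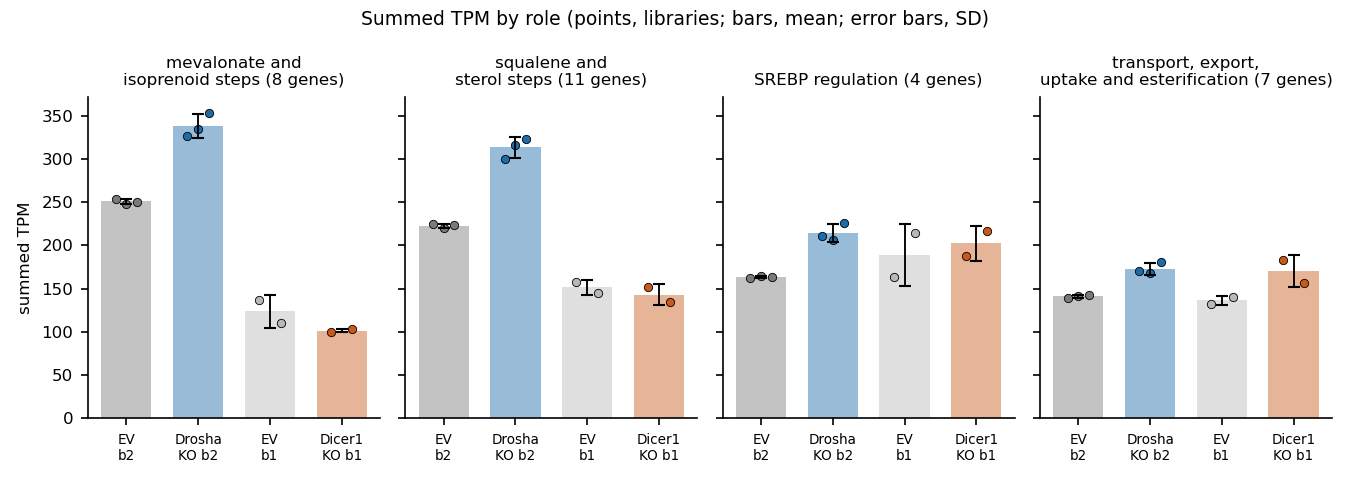
Summed TPM of the members of each role, with the libraries as points, the group mean as a bar from 0 and the SD as an error bar. In batch 2 each role was higher in the 3 Drosha knockout libraries than in the 3 empty vector libraries, while in batch 1 the mevalonate and isoprenoid sum went from 137 and 110.2 TPM to 99.9 and 103 TPM and the transport sum from 133 and 139.9 TPM to 183 and 157 TPM.

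The promoters of 4 of the genes described above are shown because these genes rose together in Drosha knockout while Idi1 fell in batch 1. Each run is 300 bases of GRCm38.p6 from RefSeq, from 250 before to 50 after the gene's start, read 5′ to 3′ on the gene's strand. Capitals mark the sterol regulatory element TCACnCCAC (n, any base), which SREBP binds, and the CCAAT box, bound by NF-Y, on either strand (ATTGG is its reverse), and the capitals do not overlap.
Hmgcs1 promoter, chr13:119690101-119690400, + strand: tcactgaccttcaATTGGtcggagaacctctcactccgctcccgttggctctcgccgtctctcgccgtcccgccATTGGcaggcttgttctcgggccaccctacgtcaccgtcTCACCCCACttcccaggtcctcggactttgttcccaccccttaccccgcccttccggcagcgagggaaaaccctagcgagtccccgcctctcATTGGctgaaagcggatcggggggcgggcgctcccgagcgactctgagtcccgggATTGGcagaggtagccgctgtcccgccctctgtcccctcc
Idi1 promoter, chr13:8885356-8885655, + strand: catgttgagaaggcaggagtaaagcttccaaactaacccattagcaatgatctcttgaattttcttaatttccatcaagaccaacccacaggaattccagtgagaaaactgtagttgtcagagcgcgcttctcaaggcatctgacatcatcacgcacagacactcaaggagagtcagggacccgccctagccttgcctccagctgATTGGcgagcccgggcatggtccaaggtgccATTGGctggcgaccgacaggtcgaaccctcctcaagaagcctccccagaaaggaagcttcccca
Msmo1 promoter, chr8:64733529-64733828, - strand: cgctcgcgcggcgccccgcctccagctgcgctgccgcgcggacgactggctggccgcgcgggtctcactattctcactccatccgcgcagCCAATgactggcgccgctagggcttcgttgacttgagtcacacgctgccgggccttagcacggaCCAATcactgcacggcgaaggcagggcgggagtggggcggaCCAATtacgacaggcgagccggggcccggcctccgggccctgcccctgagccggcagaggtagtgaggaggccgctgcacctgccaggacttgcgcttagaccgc
Sc5d promoter, chr9:42264251-42264550, - strand: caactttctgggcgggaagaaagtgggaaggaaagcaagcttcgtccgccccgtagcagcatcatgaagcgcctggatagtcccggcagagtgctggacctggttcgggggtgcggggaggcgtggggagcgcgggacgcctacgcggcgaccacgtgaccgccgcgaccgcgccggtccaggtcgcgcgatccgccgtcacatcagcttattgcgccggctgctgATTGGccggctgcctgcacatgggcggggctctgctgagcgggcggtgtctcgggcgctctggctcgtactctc
Hmgcs1 carried the sterol regulatory element, starting 137 bases before the start site, and 4 CCAAT boxes. Idi1 carried 2 CCAAT boxes, Msmo1 3 and Sc5d 1. RefSeq windows were matched for 23 of the 30 members by symbol, and Scarb1, Fdft1, Sqle, Npc1, Stard4, Abcg1 and Fdps were not among them. The sterol regulatory element in these letters was found in 1 of the 23, against 1.44% of all 27025 genes with a window. The CCAAT box was found in 20 of the 23 and in 41.1% of all genes, or 44.1% of the 9030 protein-coding genes tested in batch 2. The GC box GGGCGG, bound by Sp1, was found in 21 of the 23, against 38.2% and 70.3%, and the E box CACGTG in 6, against 8.09% and 11.8%. A match is a run of letters and not evidence of binding.

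Among the regulators, Srebf2, the gene of SREBP-2, rose in Drosha knockout. It measured 51.7, 50.2 and 51.1 TPM in the empty vector and 75.3, 75.7 and 80.0 TPM in the knockout (log2 change 0.58 ± 0.04, adjusted p = 4.75e-05). The batch 1 values were 34.2 and 37.8 TPM against 32.4 and 29.9 TPM, and the gene was not called (log2 change -0.20 ± 0.12, adjusted p = 0.237). Insig1, the retention factor that SREBP-2 itself activates, rose from 29.6, 28.5 and 30.02 TPM to 39.8, 41.2 and 40.1 TPM (log2 change 0.45 ± 0.04, adjusted p = 0.000182). Its batch 1 values were 14.9 and 18.2 TPM against 12.5 and 12.8 TPM, without overlap but not called (log2 change -0.36 ± 0.16, adjusted p = 0.140), and Insig1 was called lower without empty vector replicate 1 (-0.49, adjusted p = 0.0385).

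Scap, the escort, rose slightly in Drosha knockout, from 19.3, 20.3 and 19.1 TPM to 21.0, 23.0 and 23.0 TPM (log2 change 0.18 ± 0.06, adjusted p = 0.0347). The rise was little above the all-gene median of 0.13 and was 0.04 with median-ratio scaling (adjusted p = 0.616). The call was also lost without knockout replicate 2 (adjusted p = 0.0985) or 3 (0.0898) and without empty vector replicate 1 (0.0949) or 3 (0.1004). In batch 1 Scap measured 18.1 and 19.1 TPM against 23.6 and 26.7 TPM and was not called (log2 change 0.42 ± 0.13, adjusted p = 0.0632), though it was called without empty vector replicate 2 (adjusted p = 0.0479). Insig2, the second retention factor, was not called in either comparison (log2 changes 0.22 ± 0.08 and 0.20 ± 0.20, adjusted p = 0.0526 and 0.490). It was called higher in Drosha knockout without knockout replicate 2 (adjusted p = 0.00712) and in batch 1 without empty vector replicate 2 (0.0493). By level per transcript length it was the highest of the 30 genes in both groups of batch 1, at a mean of 118 TPM in the empty vector.

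Npc1 moves cholesterol out of the lysosome after uptake, and it rose in both comparisons. It went from 16.3, 14.8 and 16.6 TPM to 24.6, 23.5 and 24.8 TPM in Drosha knockout (log2 change 0.58 ± 0.06, adjusted p = 0.000285). It went from 12.9 and 17.0 TPM to 38.3 and 34.3 TPM in the libraries labelled Dicer1 knockout, a 2.35-fold rise (log2 change 1.23 ± 0.17, adjusted p = 0.00857). No groups overlapped. Without the first library labelled Dicer1 knockout the batch 1 change was 1.16 with an adjusted p of 0.0658. Npc1 and Hsd17b7 were 2 of 29 members called higher in both comparisons, where 13.0% of the 11146 genes tested in both were.

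Stard4 carries sterol between membranes in the cytosol. It rose in Drosha knockout from 6.72, 7.46 and 7.31 TPM to 11.6, 12.8 and 14.2 TPM (log2 change 0.76 ± 0.08, adjusted p = 0.000435). In batch 1 it measured 8.86 and 4.63 TPM in the empty vector and 4.77 and 5.47 TPM in the libraries labelled knockout, which overlapped (log2 change -0.29 ± 0.31, 95% interval -1.06 to 0.49, adjusted p = 0.515). Mylip, a ubiquitin ligase that sends lipoprotein receptors for degradation, rose in Drosha knockout from 57.7, 60.8 and 56.9 TPM to 74.1, 74.5 and 76.9 TPM (log2 change 0.36 ± 0.04, adjusted p = 0.000405). Its batch 1 values were 8.61 and 12.3 TPM against 10.1 and 7.55 TPM, which overlapped (log2 change -0.21 ± 0.24, adjusted p = 0.534).

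Abca1, the exporter that loads cholesterol onto apolipoprotein A-I, fell in batch 1. It measured 3.77 and 5.96 TPM in the empty vector and 1.83 and 2.00 TPM in the libraries labelled Dicer1 knockout (log2 change -0.98 ± 0.27, adjusted p = 0.0454). The call was lost without the first or second library labelled knockout (adjusted p = 0.215 and 0.172), without empty vector replicate 2 (0.110) and under 3 other settings, with adjusted p from 0.0168 to 0.215 over the alternatives. In batch 2 it measured 22.3, 20.5 and 23.7 TPM against 24.2, 22.2 and 28.7 TPM in Drosha knockout, which overlapped (log2 change 0.16 ± 0.10, 95% interval -0.07 to 0.39, adjusted p = 0.219). Abcg1, the exporter to larger lipoprotein particles, did not pass the filter on low TPM in either table. It measured 1.25, 0.822 and 1.25 TPM against 0.385, 0.605 and 0.138 TPM in Drosha knockout, without overlap, and 0.717 and 2.36 TPM against 0.645 and 0.121 TPM in batch 1. Fitted without the filter, its log2 changes of -0.62 ± 0.16 and -0.82 ± 0.42 were not called (adjusted p = 0.0595 and 0.317).

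Abca1 and Abcg1 are known targets of miR-33, a microRNA encoded within Srebf2, which is why its sequence is shown here with the seed, bases 2 to 8, in capitals.
mmu-miR-33-5p, chr15:82198127-82198147, + strand, GRCm38.p6: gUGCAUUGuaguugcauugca
Abca1 3′ UTR bases 131 to 160, chr4:53033783-53033812, - strand, GRCm38: tattCAATGCAATGCActtCAATGCAacga
The capitals in the Abca1 run are 3 matches to the seed (CAATGCA), the first pair sharing bases. In the longest annotated 3′ UTR of each gene, 3 of the 30 members held this match (Abca1 with 3, Abcg1 with 2 and Nsdhl with 1), as did 7.12% of the 21020 genes with a 3′ UTR. The gene Mir33 itself was listed at 0 TPM in all 10 libraries, which measured captured mRNA and not mature microRNA, so no level of miR-33 is given.

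Scarb1, a receptor for high-density lipoprotein, was not called in either comparison (log2 changes -0.12 ± 0.06 and -0.08 ± 0.11), but was called lower in Drosha knockout with median-ratio scaling (-0.25, adjusted p = 0.0115). Soat1, which esterifies cholesterol for storage, was 22.0, 24.9 and 25.0 TPM against 23.4, 22.7 and 24.7 TPM in Drosha knockout (log2 change -0.02 ± 0.06, adjusted p = 0.853). Batch 1 levels were 66.9 and 67.5 TPM against 98.0 and 79.7 TPM, without overlap but not called (log2 change 0.39 ± 0.12, adjusted p = 0.0634).

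The changes in the 2 knockouts were then compared in 1 fit of all 10 libraries, as the Drosha change minus the Dicer1 change. That fit gave both batches 1 spread per gene, although the batch 1 empty vector libraries differed more from each other. The SE of the difference could thus be below that of the batch 1 change alone, as for Idi1 and Pmvk, though not for Soat1. Its p-values may be too small for such members. Of 29 members, 15 had a higher change in Drosha knockout (51.7%) and 2 a lower one (6.9%), where 17.4% and 18.1% of all 11146 genes did. The members' median difference was 0.38, against -0.02 over all genes. The largest differences were those of Idi1 (2.13 ± 0.21, adjusted p = 7.46e-05), Msmo1 (1.37 ± 0.15, adjusted p = 0.000158), Acat2 (1.16 ± 0.20, adjusted p = 0.00182) and Abca1 (1.14 ± 0.23, adjusted p = 0.00368). Npc1 (-0.65 ± 0.15, adjusted p = 0.00898) and Soat1 (-0.41 ± 0.13, adjusted p = 0.0360) went the other way. Because each knockout has its own batch, a difference between knockouts and a difference between batches cannot be told apart.

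**Figure D4:**
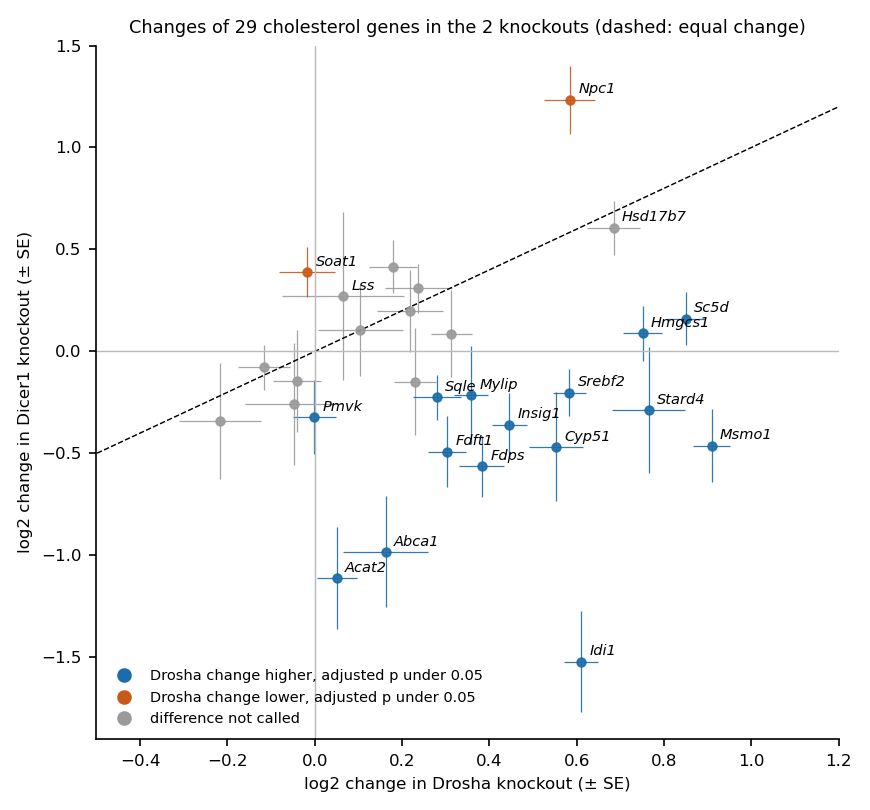
Log2 change in Drosha knockout (horizontal) against that in the libraries labelled Dicer1 knockout (vertical) for the 29 members tested, each with its standard error, and a dashed line of equal change. Blue points changed more upward in Drosha knockout and orange points less, at an adjusted p under 0.05. The 15 blue points lie below the dashed line, and Npc1 and Soat1 lie above it.

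The empty vector cells of the batches differed in the levels of several members, which are given side by side without a test. A difference of cells and a difference of batch cannot be told apart here. Abca1 had a mean of 22.2 ± 1.62 TPM (SD, n = 3) in batch 2 and 4.87 ± 1.55 TPM (SD, n = 2) in batch 1. Mylip stood at 58.5 ± 2.05 and 10.5 ± 2.64 TPM. The order was reversed for Soat1, at 24.0 ± 1.73 and 67.2 ± 0.44 TPM, and for Scarb1, at 12.5 ± 0.71 and 30.5 ± 0.55 TPM.

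Genes around the pathway were counted from lists that leave the members out. Of 15 genes of sterol sensing, degradation and LXR regulation, 8 rose (53.3%, against 35.3% of all genes) and 1 fell in Drosha knockout, and 4 rose in the libraries labelled Dicer1 knockout (26.7%, near the 21.5% of all genes). Erlin2, part of the machinery that degrades sterol-regulated proteins in the endoplasmic reticulum, rose from 27.8 ± 0.91 to 57.1 ± 1.81 TPM in batch 2 and from 25.1 ± 4.07 to 52.9 ± 1.39 TPM in batch 1 (log2 changes 1.01 and 1.05, adjusted p = 1.2e-05 and 0.00838). Syvn1, a ubiquitin ligase of the same compartment, rose by 0.41 ± 0.05 and 1.32 ± 0.11 (adjusted p = 0.000491 and 0.00406). Nr1h3, the gene of the sterol receptor LXRα, fell in Drosha knockout from 16.4 ± 1.38 to 12.1 ± 1.00 TPM (log2 change -0.41 ± 0.08, adjusted p = 0.00613).

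Of 22 tested genes of uptake, lysosomal release, trafficking and esterification, 11 rose and 2 fell in Drosha knockout (50.0% and 9.09%, against 35.3% and 7.42% of all genes). In the libraries labelled Dicer1 knockout 7 rose and 3 fell (31.8% and 13.6%, against 21.5% and 9.6%). Cd36, a receptor for fatty acids and modified lipoproteins, and Cav1, the coat protein of caveolae, fell in both. Cd36 went from 61.4 ± 0.60 to 42.1 ± 1.36 TPM and from 33.7 ± 7.43 to 2.00 ± 0.36 TPM (log2 changes -0.54 and -3.52, adjusted p = 6.42e-05 and 0.00232). Cav1 went from 222 ± 14.0 to 127 ± 8.97 TPM and from 619 ± 47.8 to 327 ± 49.3 TPM (log2 changes -0.80 and -0.93, adjusted p = 0.000114 and 0.00890). Most adipocyte markers fell in the same libraries, as given above, and their part in these falls was not tested.

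The branch that turns isoprenoids into dolichol, ubiquinone and prenyl groups had 10 of 16 genes higher and none lower in Drosha knockout (62.5% higher, against 35.3% of all genes). In the libraries labelled Dicer1 knockout 3 were higher and 1 lower (18.8% and 6.25%, near the 21.5% and 9.6% of all genes). Icmt, which methylates prenylated proteins, rose by 0.29 ± 0.06 and 1.04 ± 0.13 (adjusted p = 0.00674 and 0.00777), and Nus1, of dolichol synthesis, by 0.34 ± 0.04 and 0.68 ± 0.10 (adjusted p = 0.000388 and 0.00917). Pdss1, of ubiquinone synthesis, fell in batch 1 by a log2 change of -0.88 ± 0.25 (adjusted p = 0.0490). Of the late sterol and oxysterol genes, 2 of 4 tested rose in Drosha knockout (50.0%, against 35.3% of all genes). They were Lbr (0.59 ± 0.07, adjusted p = 0.000772) and Erg28 (0.40 ± 0.05, adjusted p = 0.000704). In batch 1, 1 of 5 tested rose (20.0%, near the 21.5% of all genes), Hsd3b7 (0.78 ± 0.16, adjusted p = 0.0207).

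Of 8 genes of fatty acid synthesis that SREBP-1 drives, 2 rose and 2 fell in Drosha knockout (25.0% each, against 35.3% and 7.42% of all genes). In the libraries labelled Dicer1 knockout 1 rose and 2 fell (12.5% and 25.0%, against 21.5% and 9.6%). Scd1, a fatty acid desaturase, fell from 49.7 ± 2.64 to 28.8 ± 2.62 TPM and from 28.1 ± 1.02 to 3.48 ± 0.15 TPM (log2 changes -0.77 and -2.70, adjusted p = 0.000201 and 0.00182). Me1, malic enzyme, rose from 38.5 ± 1.18 to 60.5 ± 2.02 TPM and from 70.6 ± 1.40 to 125.9 ± 2.05 TPM (log2 changes 0.64 and 0.83, adjusted p = 5.29e-05 and 0.00558). Of 6 LXR target genes tested outside the members, 1 rose and 3 fell in Drosha knockout (16.7% and 50.0%, against 35.3% and 7.42% of all genes). In the libraries labelled Dicer1 knockout, 1 rose and 2 fell (16.7% and 33.3%, against 21.5% and 9.6%). Pltp, a phospholipid transfer protein, was among those that fell in both, with log2 changes of -0.18 ± 0.03 and -1.26 ± 0.14 (adjusted p = 0.00475 and 0.00604).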

How the data were processed

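The authors deposited TPM per gene in 1 table per knockout, which the submitters' processing notes credit to kallisto 0.48.0. TPM keeps no depth. The index, annotation and build were not given in the sources used here. Bead-captured mRNA was sequenced, and the labels' protocols name several kits and sequencers without saying which library each served. Genes without a symbol were named by Ensembl ID where a reference table held it (20024 of 22369, Drosha table) or left out (22339, Dicer1 table; 4.25% to 6.22% of TPM), which gave 55189 and 32931 names. No row added this way had a member's symbol.

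Genes with TPM of at least 1 in at least 3 of 6 (Drosha) or 2 of 4 (Dicer1) libraries were tested as log2(TPM + 1) in two-sided tests by limma 3.58.1 (R 4.3.3), with a mean trend. The pseudocount understates changes of low genes. Adjusted p-values are Benjamini-Hochberg over all genes tested, called under 0.05. The difference between knockouts was an interaction in 1 fit of all 10 libraries, which share 1 spread per gene. The fits of each knockout against its own empty vector were tested on simulated data with equal spread in both groups. The fit of the difference was not.

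Members and lists were chosen with earlier results of these data known. Values per library are given, within each role, for at most 4 called members, those that changed most, and any called in opposite directions, 15 in all. Levels of Soat1 and Abcg1 by library and of members across the empty vectors were added after their values were seen. Each other list was reduced in the same way, and some of those genes are given here. Promoter windows came from RefSeq (GRCm38.p6), and 3′ UTRs from GENCODE vM21 (GRCm38), which need not be the authors' annotation. Motifs were searched on both strands as exact letters. Each result was refitted with quantile normalization, median-ratio scaling, a replicate block, no mean trend, other pseudocounts (0.1, 0.5), no filter or a minimum of 5 TPM, only rows with a symbol, and each library left out.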

Additional observations from a re-analysis of the deposited data

Results flagged for a closer look

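The changes of 17 of the 29 members tested in both batches differed between the knockouts in the test of the difference itself, by limma at an adjusted p under 0.05 over 11146 genes. That test used 1 spread per gene for both batches, so its p-values may be too small for members that varied more in batch 1. Pmvk and Soat1, among the 17, were called in neither separate comparison. As the log2 change in Drosha knockout minus that in the libraries labelled Dicer1 knockout, the mevalonate and isoprenoid genes stood at 2.13 for Idi1, 1.16 for Acat2, 0.95 for Fdps, 0.66 for Hmgcs1 and 0.32 for Pmvk. The squalene and sterol genes stood at 1.37 for Msmo1, 1.02 for Cyp51, 0.79 for Fdft1, 0.69 for Sc5d and 0.50 for Sqle. The regulators Insig1 and Srebf2 stood at 0.80 and 0.78, and Abca1, Stard4 and Mylip at 1.14, 1.05 and 0.57. Npc1 and Soat1 had the opposite sign, at -0.65 and -0.41. Of the 17, 13 were called under each of the 19 alternatives, and Pmvk, Stard4, Mylip and Soat1 were not.

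Stard4 missed the threshold without the first library labelled Dicer1 knockout (adjusted p = 0.0600). Pmvk missed it without any 1 of 8 libraries and Soat1 without any 1 of 6, with adjusted p up to 0.135 and 0.139. Mylip missed it without any 1 of 8, with adjusted p up to 0.167. Without batch 1 empty vector replicate 2, Ebp, Mvk and Nsdhl were called as well (0.49, 0.70 and 0.39). Calls were also lost with all libraries kept. Pmvk and Mylip missed the threshold with no filter, with a replicate block and with quantile normalization (adjusted p = 0.413 and 0.163 by limma in the last). Mylip missed it as well with a pseudocount of 0.1, with median-ratio scaling and without the mean trend. Soat1 missed it with no filter, with a replicate block and without the mean trend. Knockout and batch cannot be told apart here. No group had enough libraries for a search for outlying ones.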

How the results depend on the processing

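Of the 18 members that rose in Drosha knockout, 13 were called under all 15 alternatives (Hmgcs1, Idi1, Fdps, Cyp51, Msmo1, Hsd17b7, Ebp, Sc5d, Srebf2, Insig1, Stard4, Npc1 and Mylip), and Mvk, Ggps1, Fdft1, Sqle and Scap were not. None of the 6 calls in the libraries labelled Dicer1 knockout held under all 13 alternatives. No call reversed its direction under any alternative. The count called lower in Drosha knockout was 3 with median-ratio scaling and 4 with quantile normalization, in place of 0, and leaving out 1 library gave 16 to 18 higher and 0 lower. In the libraries labelled Dicer1 knockout, the counts of 2 higher and 4 lower became 1 and 0 with no filter. The count higher was 1 with median-ratio scaling and 1 with quantile normalization. Leaving out 1 library gave 0 to 4 higher and 0 to 5 lower, and the lone library left in a group was then assumed to vary like the others. For the difference between knockouts, the count lower was 1 in place of 2 with no filter and without the mean trend, and leaving out 1 library gave 13 to 17 higher and 1 to 2 lower. Same-numbered replicates did not deviate together (correlations of -0.02, 0.02 and -0.01 in batch 2 and -0.09 in batch 1), and the main fits used no pairing. Such correlations cannot exclude that same-numbered libraries were prepared together, and with 2 libraries a group batch 1 gives only 1 value. With a replicate block the counts were 17 higher and 0 lower in Drosha knockout, 2 and 2 in the libraries labelled Dicer1 knockout, and 13 and 1 for the difference. Depth is unknown, and 2 libraries a group limit batch 1 most. The causes of these shifts were not tested.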
